A study of Mus musculus with 9 samples.

Results

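The 8 genes described here encode ligands and receptors of the colony-stimulating factors. Csf1 and Il34 encode M-CSF and interleukin-34, both ligands of the M-CSF receptor encoded by Csf1r. Csf2 encodes GM-CSF, Csf2ra the ligand-specific alpha subunit of its receptor, Csf2rb the beta subunit common to the receptors of GM-CSF, IL-3 and IL-5, and Csf2rb2 a close copy of it, found in mice, that serves the IL-3 receptor. Csf3r encodes the G-CSF receptor. They were taken by gene symbol from the 24411 genes of the deposited table, and all 8 were present. Of the 8, Csf1, Csf1r, Csf2ra, Csf2rb and Csf2rb2 reached 1 TPM (a read count divided by transcript length and scaled so that every library has the same total) in at least 3 of the 9 libraries and were among the 11753 genes tested. Il34, Csf2 and Csf3r did not, and their levels are given without a fitted test.

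M-CSF binds a receptor tyrosine kinase that keeps macrophages alive and dividing, and most tissue macrophages depend on it. The GM-CSF, IL-3 and IL-5 receptors instead pair an alpha subunit that recognizes the ligand with a beta subunit that carries the signal through the kinase JAK2 and the factor STAT5. G-CSF acts mainly on cells of the neutrophil lineage, and its receptor is little used by mature macrophages.

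The libraries came from self-renewing macrophage lines of C57BL/6 mice, with 1 bulk RNA-seq library per line. There were 3 YS lines from E9.5 yolk sac, 3 FL lines from fetal liver at E14.5, and 3 BM lines from adult bone marrow. All 9 lines were grown with serum and recombinant human M-CSF, so the human protein was present in every group and the deposited values of mouse Csf1 are those of the cells' own transcripts. Total cells pooled from several mice were seeded, and growing colonies of macrophage-like cells were collected and passaged further. In the BM and FL cultures these colonies came up after most adherent cells had stopped dividing, which was not always so in the YS cultures. Each line was a bulk population kept apart from the others by its culture vessel. Lines of one group therefore need not stem from different animals, and p-values measure the spread between lines. The methods name no other colony-stimulating factor in the medium, and factor-free cultures were not analysed here.

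The read depth behind a TPM value is unknown, so precision was judged from the spread among lines. Between 13345 and 14322 genes were above 0 in a library. The 8 listed macrophage markers, Csf1r among them, summed to 4066 to 28150 TPM per library, with Lyz2 alone at 1163 to 21976 TPM. Adgre1, Itgam, Cd68 and Cd14 were at 84.91 TPM or more in every line, but Fcgr1 was at 5.47, 42.10 and 1.68 TPM in the BM lines against at least 110.13 TPM elsewhere, and Mertk was between 9.67 and 90.52 TPM. YS line 1 stood apart from the other YS lines, with Pearson's r of log2(TPM + 1) over the 11753 genes of 0.942 and 0.912 against 0.960 between YS lines 2 and 3. BM line 2 held transcripts that the other BM lines lacked. For 45 genes that YS line 2 held at no less than 20 TPM and that stayed below 0.5 TPM in the other BM lines, the level in BM line 2 was a median of 14.1% of that in YS line 2. For the called members, what remained without these libraries is given beside the results, and for most other genes it is not. Genes were called differentially expressed with limma on log2(TPM + 1) at a Benjamini-Hochberg adjusted p under 0.1 together with a difference above 2-fold, and log2 fold changes on this scale understate changes of low genes. In bulk RNA, fewer cells that express a gene and less of its RNA per cell cannot be told apart.

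Across the group, Csf1 was higher in YS lines than in both other groups, Csf2ra was higher in BM lines than in both other groups, Csf2rb2 was higher in BM than in FL lines, and Csf1r was among the most abundant transcripts in all 9 lines. Between YS and BM lines 2 of the 5 tested members were called, 1 of them higher and 1 lower in YS lines, where 12.8% of all tested genes were called. Between FL and BM lines 2 were called, both lower in FL lines, where 10.3% of all tested genes were called. Between YS and FL lines 1 was called, higher in YS lines, where 3.79% of all tested genes were called. The lines of both groups did not overlap in 3, 4 and 4 of the 5 members in the same order, against 49.0%, 49.5% and 26.1% of all tested genes.

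**Figure D1:**
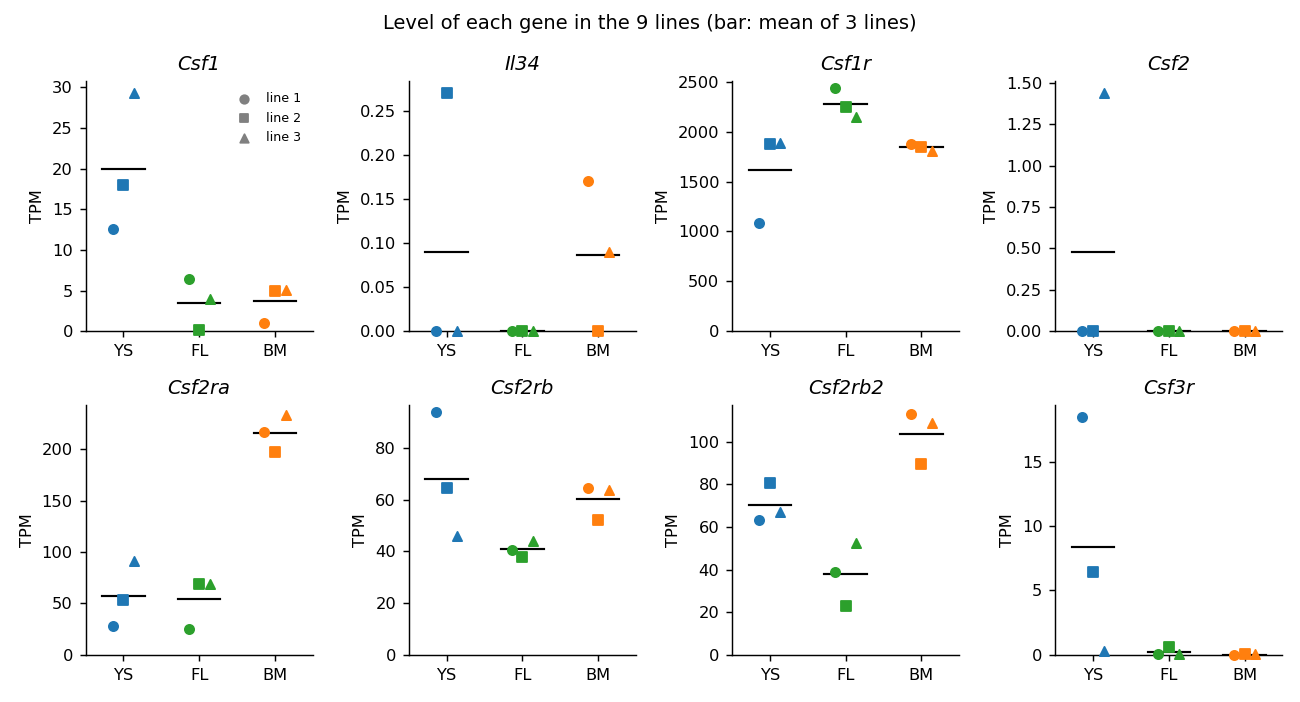
TPM (linear axis, starting at 0, with its own range in each panel) of the 8 genes in YS, FL and BM lines, with 1 point per line, the point shape giving the line number and the bar the mean of 3 lines. Csf1 is highest in the YS lines, Csf2ra in the BM lines, and Csf3r is above 1 TPM in YS lines 1 and 2 only.

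Csf1, the gene of M-CSF, reached 12.62, 17.99 and 29.30 TPM in the YS lines (line 1, 2 and 3, an order kept throughout). The FL lines had 6.42, 0.13 and 4.01 TPM, and the BM lines 1.07, 4.90 and 5.07 TPM. All YS lines exceeded all 6 others, while FL and BM lines overlapped. In rank, Csf1 stood between percentiles 66.5 and 77.02 of all genes in the YS lines and between 47.6 and 61.1 in the others. The fitted log2 fold change of Csf1 was 2.24 ± 0.71 (standard error) for YS against BM, with an adjusted p of 0.0466 from limma, and 2.51 ± 0.71 for YS against FL, with an adjusted p of 0.0758. Between FL and BM lines it was -0.27, with a 95% confidence interval of -1.89 to 1.35 that includes changes of more than 2-fold in either direction. FL line 2, at 0.13 TPM, made the FL lines the most uneven group, and without it the FL to BM difference of Csf1 was 0.54 (limma adjusted p = 0.551).

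The Csf1 calls did not hold in every fit that left out a line. Between YS and BM lines the call of Csf1 was lost without YS line 3 (log2 fold change 1.94, limma adjusted p = 0.109) or BM line 1 (1.73, limma adjusted p = 0.156). It held without YS line 1 (2.51, limma adjusted p = 0.0557) and without BM line 2 (2.49, limma adjusted p = 0.0732). Between YS and FL lines the call was lost without YS lines 2 or 3, FL lines 2 or 3, or any BM line. The limma adjusted p was then between 0.101 and 0.165. BM lines are not part of that comparison and enter it only through the shared fit. Over the 9 fits that each left out a line, the Csf1 fold change for YS against FL was 1.70 to 3.06 on the log2 scale. Fibroblasts and endothelial cells are known sources of M-CSF, and their markers were read beside it. Of 8 fibroblast markers, 7 were below 1 TPM in every library, and their summed level did not exceed 0.37 TPM in YS, 1.55 TPM in FL and 1.31 TPM in BM lines. The 6 endothelial markers summed to 30.1 to 56.0 TPM in the YS, 18.97 to 51.78 TPM in the FL and 0.22 to 3.2 TPM in the BM lines. In that list Emcn was at 0 in every library and Tek was at most 0.04 TPM. Kdr, the receptor of VEGF, had 0.29, 16.08 and 54.35 TPM in the YS lines. It had 17.37, 17.47 and 50.36 TPM in the FL lines and at most 0.86 TPM in the BM lines. Cdh5 had 0.14, 0.87 and 1.36 TPM in YS, 1.26 to 1.38 TPM in FL and at most 0.28 TPM in BM lines. Tie1 had 25.82, 4.99 and 0 TPM in the YS lines and at most 1.54 TPM in the others, and Pecam1 had 4.91, 8.17 and 0.29 TPM in the YS lines and at most 0.56 TPM in the others. The part of these markers in the Csf1 difference was not tested.

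Il34, the gene of the other ligand of the M-CSF receptor, was listed at 0 in 6 of the 9 libraries. It was at 0.27 TPM in YS line 2, 0.17 TPM in BM line 1 and 0.09 TPM in BM line 3. No group differed from another in Il34 beyond the spread of its lines. Csf2, the gene of GM-CSF, was at 1.44 TPM in YS line 3 and listed at 0 in the other 8 libraries. Its gene neighbour Il3, which encodes the related cytokine IL-3, was listed at 0 in all 9 libraries. Csf3, the gene of G-CSF, reached at most 0.11 TPM, and Il5 was at 0.24 TPM in YS line 3 and listed at 0 elsewhere. Among the ligands of these receptors, Csf1 was thus the one above 2 TPM in any line.

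Csf1r, the gene of the M-CSF receptor, reached 1085.83, 1881.98 and 1889.35 TPM in the YS lines. The FL lines had 2441.25, 2250.60 and 2144.82 TPM, and the BM lines 1879.38, 1843.09 and 1810.88 TPM. It ranked between place 26 and place 50 of all 24411 genes in 8 libraries and at place 122 in YS line 1. Every FL line was above every YS and BM line, whereas YS and BM lines overlapped. None of these differences was called. The log2 fold change of Csf1r was 0.30 between FL and BM lines (95% confidence interval -0.17 to 0.77, limma adjusted p = 0.302) and -0.54 for YS against FL (interval -1.005 to -0.07, limma adjusted p = 0.151). Between YS and BM lines it was -0.23 (interval -0.70 to 0.24), and without YS line 1 it was 0.03. A 2-fold change of Csf1r lay outside the intervals for both comparisons with BM lines. The YS lines thus had the highest Csf1 and, in line 1, the lowest Csf1r, and Csf1r exceeded Csf1 by a ratio of 64.5 to 105 in YS lines, 380 to 17312 in FL lines and 357 to 1756 in BM lines. The log2 ratio of Csf1 over Csf1r did not overlap between YS lines and either other group (exact two-sided permutation test, p = 0.1 for each, the smallest that 3 lines against 3 allow, and 0.167 after adjustment over 15 tests of 5 ratios).

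Csf2ra, the gene of the GM-CSF receptor's alpha subunit, was at 216.41, 197.28 and 232.86 TPM in BM lines. The YS lines had 28.18, 53.10 and 91.33 TPM, and the FL lines 25.33, 68.80 and 69.14 TPM. The lowest BM line was above the highest of the other 6 lines, and YS and FL lines overlapped. The log2 fold change of Csf2ra was -2.04 ± 0.47 (standard error) for YS against BM, with an adjusted p of 0.0151 from limma, and -2.10 ± 0.47 for FL against BM, with an adjusted p of 0.0155, which on the fitted scale is 4.10-fold and 4.28-fold higher in BM lines. Leaving out any single line kept both calls. The fold changes then lay between -2.44 and -1.61 and between -2.33 and -1.63 on the log2 scale, BM line 2 and YS line 1 included. Csf2ra differed between YS and FL lines by 0.06 on the log2 scale, with an interval of -1.003 to 1.12 that does not exclude a 2-fold change in either direction.

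Csf2ra lies on chromosome 19 in the RefSeq annotation, and that chromosome as a whole was lower in the YS and FL lines. The 403 other tested genes of chromosome 19 had a median log2 fold change of -0.52 between YS and BM lines and -0.79 between FL and BM lines, where all tested genes had 0.11 and 0.09. Csf2ra was lower than most of them, with 12 of the 403 genes showing a lower fold change than Csf2ra in the first comparison and 10 in the second. Zfp950, a neighbour of Csf2ra, had log2 fold changes of -1.10 and -0.88. The part of the chromosome in the Csf2ra difference was not tested.

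Csf2rb, the gene of the common beta subunit, reached 93.95, 64.58 and 45.94 TPM in the YS lines. The FL lines had 40.53, 38.05 and 43.98 TPM, and the BM lines 64.48, 52.14 and 63.73 TPM. Every FL line was below every YS and BM line, and YS lines, spread on both sides of the BM lines, overlapped with them. Csf2rb was not called in any comparison. Its log2 fold change was -0.54 ± 0.23 (standard error) for FL against BM (adjusted p = 0.136 by limma), 0.67 ± 0.23 for YS against FL (adjusted p = 0.116) and 0.13 for YS against BM (95% confidence interval -0.40 to 0.65).

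Csf2rb2, the gene of the IL-3-specific beta subunit, was at 112.92, 89.41 and 108.95 TPM in BM lines. The YS lines had 63.10, 80.91 and 66.89 TPM, and the FL lines 38.99, 23.13 and 52.49 TPM. The levels fell into the order BM, YS and FL lines with no overlap between neighbouring groups. The log2 fold change of Csf2rb2 for FL against BM was -1.49 ± 0.26 (standard error, adjusted p = 0.00585 by limma), 2.80-fold higher in BM lines on the fitted scale, and the call held without any single line. The other steps were not called. Csf2rb2 had for YS against FL lines a log2 fold change of 0.93 (standard error 0.26) with a limma adjusted p of 0.0755 and a change under 2-fold, and without FL line 3 it passed the fold threshold and was called at 1.19 (limma adjusted p = 0.0722). Between YS and BM lines the fold change was -0.56 on the log2 scale (limma adjusted p = 0.144).

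**Figure D2:**
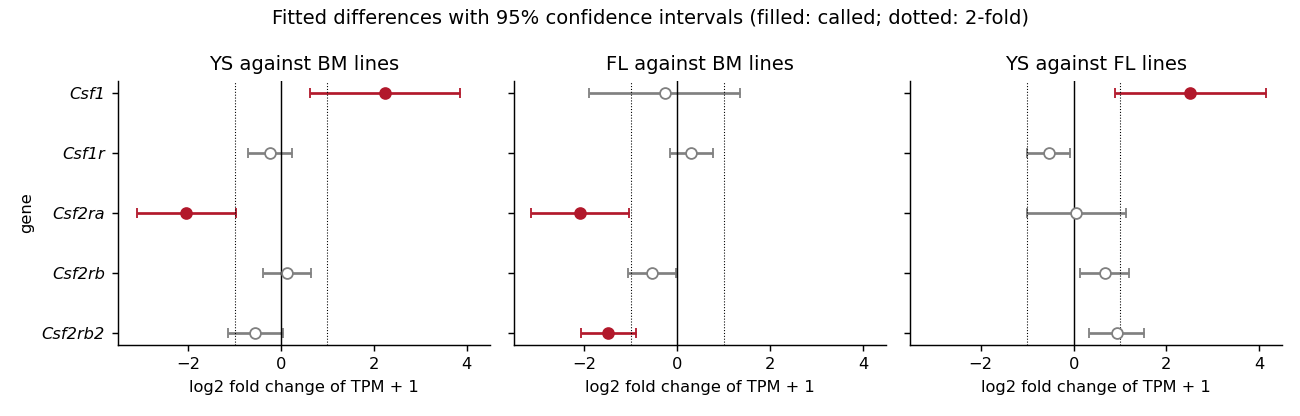
Log2 fold change of TPM + 1 (horizontal axis) for the 5 tested members in the 3 comparisons, with 95% confidence intervals from the limma fit over 9 lines, filled where called and with dotted lines at 2-fold. Csf2ra lies near -2 in both comparisons with BM lines, at -2.04 and -2.10, and the interval of Csf1 between FL and BM lines spans -1.89 to 1.35.

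The split between Csf2rb and Csf2rb2 is uncertain because single reads of 75 bases can match both genes. Of the 75-base words in the GENCODE M21 transcript Csf2rb-206, 10.7% occur in transcripts of Csf2rb2, and of those in Csf2rb2-201, 11.1% occur in transcripts of Csf2rb. The longest stretch that both coding sequences share is 242 bases and lies in the last of 13 coding exons of both genes, at chr15:78348577-78348818 on the plus strand for Csf2rb and chr15:78284630-78284871 on the minus strand for Csf2rb2 (GRCm38). It is shown because a read from within it could not be assigned, and the 60 bases that follow it are shown with the differing bases in capitals. The stretches were:
Csf2rb and Csf2rb2, shared: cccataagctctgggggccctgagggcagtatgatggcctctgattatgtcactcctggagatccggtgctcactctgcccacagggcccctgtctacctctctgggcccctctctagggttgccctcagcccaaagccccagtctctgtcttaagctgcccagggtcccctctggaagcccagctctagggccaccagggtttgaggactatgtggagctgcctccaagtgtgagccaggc
Csf2rb, next 60 bases: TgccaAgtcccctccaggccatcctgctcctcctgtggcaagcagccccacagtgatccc
Csf2rb2, next 60 bases: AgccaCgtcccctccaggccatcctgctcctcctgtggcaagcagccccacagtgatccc
Only 2 of these next 60 bases differ. The submitters' processing notes name RSEM 1.3.3, and how many shared reads it divided between both genes is not given in the sources used here.

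The sum of Csf2rb and Csf2rb2 is less affected by that split. The YS lines had 157.05, 145.49 and 112.83 TPM, the FL lines 79.52, 61.18 and 96.47 TPM, and the BM lines 177.40, 141.55 and 172.68 TPM. Every FL line was below every other line. Fitted as 1 gene, a choice made after seeing the data, the sum had a log2 fold change of -1.06 between FL and BM lines (limma adjusted p = 0.00643, called), 0.81 between YS and FL lines (adjusted p = 0.052, under 2-fold) and -0.25 between YS and BM lines (adjusted p = 0.355). Csf2rb2 made up 63.7%, 63.2% and 63.1% of the summed TPM in BM lines, 40.2%, 55.6% and 59.3% in YS lines and 49.0%, 37.8% and 54.4% in FL lines. The BM lines were thus close to each other and above the other 6 lines in this share (exact two-sided permutation test of the log2 ratio of Csf2rb2 over Csf2rb, p = 0.1 against either group, 0.167 adjusted). This share depends on the uncertain split. The closeness is not particular to it, as Pearson's r over all tested genes was 0.975 to 0.985 between BM lines. It was 0.912 to 0.960 between YS lines and 0.947 to 0.963 between FL lines.

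Set against each other within a library, where scaling between libraries plays no part, the receptor genes held a different balance in BM lines. The ratio of Csf1r over Csf2ra was 8.68, 9.34 and 7.78 in BM lines, 38.5, 35.4 and 20.7 in YS lines and 96.4, 32.7 and 31.0 in FL lines. Csf2ra per summed beta transcript was 1.22, 1.39 and 1.35 in BM lines, 0.179, 0.365 and 0.809 in YS lines and 0.319, 1.12 and 0.717 in FL lines. Alpha transcripts exceeded beta transcripts in every BM line and, of the other lines, in FL line 2 only. All ratios of this paragraph hold Csf2ra, so they are not independent of its difference in level. For Csf2ra over Csf1r and Csf2rb over Csf2ra the BM lines did not overlap with either group (exact two-sided permutation tests, p = 0.1 and 0.167 adjusted over 15 tests), while YS and FL lines overlapped in both.

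**Figure D3:**
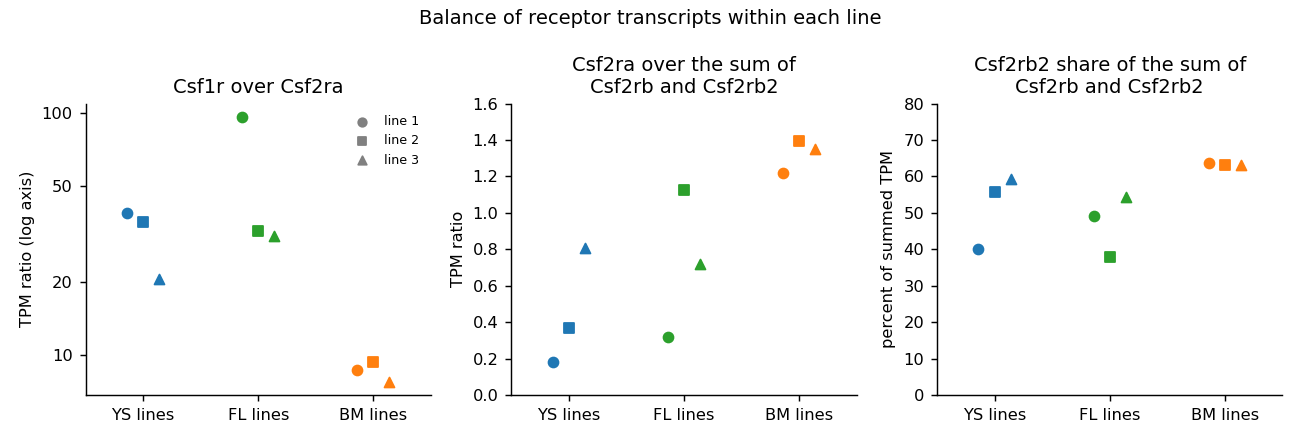
Within each line, the TPM ratio of Csf1r over Csf2ra (left, log axis), the TPM ratio of Csf2ra over the sum of Csf2rb and Csf2rb2 (middle) and the percent of that sum held by Csf2rb2 (right), with 1 point per line. The BM lines lie at 7.78 to 9.34 in the left panel and at 63.1% to 63.7% in the right panel, apart from the YS and FL lines in all 3 panels.

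Csf2ra and Csf2rb2 were both lower in FL than in BM lines, and the 250 bases before their RefSeq start sites are printed so that their sequence can be read beside these values. RefSeq promoters of GRCm38.p6 were matched for 5 of the 8 members, Csf1, Csf2, Csf2ra, Csf2rb2 and Csf3r. The letters GAGGAA, the core that the myeloid factor PU.1 prefers, are in capitals on either strand. The windows lie at chr19:61228419-61228668 for Csf2ra and chr15:78305722-78305971 for Csf2rb2, both on the minus strand:
Csf2ra: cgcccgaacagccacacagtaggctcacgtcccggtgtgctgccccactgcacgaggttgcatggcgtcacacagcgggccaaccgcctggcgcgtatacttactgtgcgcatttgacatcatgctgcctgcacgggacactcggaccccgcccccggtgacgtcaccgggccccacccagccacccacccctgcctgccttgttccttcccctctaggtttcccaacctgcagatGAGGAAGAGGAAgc
Csf2rb2: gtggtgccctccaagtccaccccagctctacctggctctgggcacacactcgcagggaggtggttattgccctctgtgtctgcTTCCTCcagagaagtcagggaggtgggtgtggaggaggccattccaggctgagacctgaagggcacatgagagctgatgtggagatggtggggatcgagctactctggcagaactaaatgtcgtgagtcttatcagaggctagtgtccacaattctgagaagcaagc
In Csf2ra a pair of GAGGAA copies stands back to back, with first bases 14 and 8 bases before the start. Csf2rb2 has 1 match on the opposite strand, with its first printed base 167 bases before the start, and Csf3r has 1 at 86 bases. Such a match is found in 23.1% of 27025 promoter windows of the same length, so its presence in 3 of 5 members is a description and not a site. The letters TTCNNNGAA, the palindrome that STAT factors bind, matched once, in Csf2rb2 at 15 bases before the start (7.18% of all windows). TTNNGNAA, a loose form of the C/EBP motif, matched once in Csf2ra at 31 bases and once in Csf2 at 145 bases (36.9% of all windows), and TGTGGT, the RUNX core, matched in none of the 5 (14.2% of all windows). Both strands were searched, and no match overlapped another.

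Csf3r, the gene of the G-CSF receptor, reached 18.49, 6.42 and 0.29 TPM in the YS lines. The FL lines had 0.09, 0.60 and 0.08 TPM, and the BM lines 0, 0.04 and 0.04 TPM. The signal came from YS lines 1 and 2, and YS line 3 lay within the range of the FL lines. YS and BM lines did not overlap (exact two-sided permutation test, p = 0.1), and YS and FL lines did (p = 0.2 by the same exact test). Of 10 neutrophil markers in the table, 8 were below 1 TPM in every library, and Elane, Ctsg, Ngp and S100a9 were at 0 in all of them. The remaining markers were Prtn3 and S100a8. Prtn3 had 1.24, 0.33 and 0.19 TPM in the YS lines, where Csf3r had the same order of lines. Outside the YS lines, Prtn3 had 0.35 TPM in FL line 1 and was otherwise at 0. The markers summed to 3.75, 0.39 and 0.93 TPM in the YS lines. Their sum was 11.0 to 25.6 TPM for the FL group and 3.71 to 5.05 TPM for the BM group, mostly from S100a8 in both. The part of other cell types in the Csf3r signal was not tested. The progenitor marker Cd34 had 16.17, 1.47 and 5.98 TPM in the YS lines, 18.35 TPM in FL line 2 against at most 1.36 TPM in the other FL lines and at most 0.28 TPM in the BM lines, and Kit was at most 0.03 TPM in any line.

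The remaining genes of the ligand and receptor list placed these levels among related families, with 4 of 13 passing the filter. Il3ra, the alpha subunit of the IL-3 receptor that Csf2rb2 joins, reached 27.87, 32.24 and 19.56 TPM in the YS lines. The FL lines had 18.65, 21.18 and 26.80 TPM, and the BM lines 17.87, 13.83 and 9.03 TPM. Every BM line was below every YS and FL line, the opposite order to Csf2ra, but the log2 fold changes over BM lines, 0.94 in YS lines (limma adjusted p = 0.0327) and 0.70 in FL lines (limma adjusted p = 0.102), stayed under 2-fold. Il5ra was at most 0.04 TPM, and Ptprz1, a further receptor of interleukin-34, was at most 0.02 TPM. Sdc1, the heparan sulfate proteoglycan syndecan-1 that also binds interleukin-34, was at 97.09, 61.64 and 84.05 TPM in BM lines and at most 4.10 TPM in the other 6 lines, with log2 fold changes of -4.51 against BM lines in both comparisons (limma adjusted p = 0.000575 for YS and 0.000515 for FL lines). Of the related growth factors, Kitl was lower in YS than in BM lines (log2 fold change -1.07, limma adjusted p = 0.0135), at 25.24, 47.99 and 47.60 TPM against 81.20, 76.04 and 90.76 TPM, and without YS line 1 that call was lost (log2 fold change -0.77). Flt3l was between 7.25 and 14.04 TPM in all lines and was not called. Kit, Flt3, Pdgfra and Pdgfrb were at most 0.10 TPM in every library.

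Downstream of the M-CSF receptor, 40 of 44 listed genes were tested. Of these, 5 were called between YS and BM lines (3 higher, 2 lower in YS lines), 8 between FL and BM lines (6 higher, 2 lower in FL lines) and none between YS and FL lines, or 12.5%, 20% and 0% against the 12.8%, 10.3% and 3.79% of all tested genes. The list's median log2 fold changes were 0.19, 0.24 and -0.01, beside 0.11, 0.09 and 0.02 over all tested genes. Src, a kinase recruited by the receptor, was at 7.09, 5.17 and 6.93 TPM in BM lines and at most 0.81 TPM elsewhere (log2 fold changes -2.26 and -2.41). Dusp6, a phosphatase that restrains ERK, rose in both (1.19 in YS and 1.84 in FL over BM lines), as did Cbl, a ubiquitin ligase that removes the activated receptor (1.09 and 1.02), while Pik3r5, a regulatory subunit of PI3K gamma, fell in both (-1.18 and -1.23). Sla, an adaptor known to lower receptor levels, was called in YS lines (1.08), and Cblb (1.90) and Spry2 (1.31), both negative regulators of receptor kinases, in FL lines. Sla in FL lines (0.96, limma adjusted p = 0.00585) and Spry2 in YS lines (0.94, limma adjusted p = 0.0263) passed the p threshold too and lay just under 2-fold. The kinases Fyn (1.07) and Lyn (1.05) were also called higher in FL lines. Ptpn6 was lower (-0.58, limma adjusted p = 0.0106) and Inpp5d higher (0.55, limma adjusted p = 0.0433) in FL lines, both under 2-fold. These 4 genes are named outside the naming rule, after their values were seen. Without YS line 2 the number of list genes called between YS and BM lines was 8, and without BM line 3 it was 3. Over all tested genes 1556 and 1085 were called in these fits, against 1504 in the main fit. Of the same genes limma called none between YS and FL lines, but 12 had an unadjusted p under 0.05. For such unadjusted counts, here and below, no share over all tested genes was computed. Without the fold threshold 6 passed, beside 1500 of all 11753 tested genes. Leaving out YS line 2 or FL line 1 gave 1, beside 549 and 526 of all tested genes.

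For the GM-CSF, IL-3, IL-5 and G-CSF receptors, 20 of 22 listed signaling genes were tested, and 2, 2 and 0 were called in the same order, all higher in YS or FL lines (limma, and 3 at an unadjusted p under 0.05 between YS and FL lines). That was 10%, 10% and 0% of the list, no more than the 12.8%, 10.3% and 3.79% of all tested genes. The list's median log2 fold changes were 0.27, 0.14 and -0.04, beside 0.11, 0.09 and 0.02 over all tested genes. The called genes were Osm, a cytokine induced through STAT5 (2.44 in YS and 1.78 in FL over BM lines), Socs1, an inhibitor of JAK kinases (1.40 in YS lines), and Lyn, a Src family kinase (1.05 in FL lines). In Osm the FL and BM lines overlapped, with FL line 3 at 0.97 TPM and BM line 2 at 1.78 TPM. BM lines 1 and 3 had 0.08 and 0 TPM. The FL value of Osm is given outside the naming rule. For YS against BM lines the number was 1 without YS lines 1 or 3, FL line 3, or BM lines 1 or 3, and also with a pseudocount of 4, without the filter, with quantile normalization, at a false discovery rate of 0.05 and with the replicate block. It was 3 with median-of-ratios scaling and relative to Actb, and 11 without the fold threshold. Over all tested genes these settings called 1031 to 1524, and 4455 without the fold threshold, against 1504 in the main fit. For FL against BM lines the list's number was 1 without FL line 2 or BM line 1 and 0 without BM line 3, 1 with a pseudocount of 4, without the filter, with quantile normalization and at a false discovery rate of 0.05, and 4 relative to Actb. Over all tested genes these settings called 843 to 1346, against 1211 in the main fit. Jak2, the kinase bound to the beta subunits and named here after its values were seen, reached 23.04, 22.37 and 20.93 TPM in the BM lines. The YS lines had 11.41, 14.79 and 16.45 TPM, and the FL lines 12.49, 11.73 and 9.43 TPM. The BM lines were above all others by less than 2-fold (log2 fold changes -0.62 and -0.93, limma adjusted p = 0.0254 and 0.00585). The other JAK and STAT genes of the list, also named after their values were seen, did not share this order. For Jak1, Stat3 and Stat5a every BM line was below every YS and FL line. Their log2 fold changes over BM lines were 0.44, 0.68 and 0.63 in YS and 0.66, 0.71 and 0.78 in FL lines. Stat5b was higher in FL than in BM lines (0.61) and overlapped between YS and BM lines. No JAK or STAT gene of the list was called. Of 15 genes known to be induced by GM-CSF, 6 were tested, and 1 was called in each comparison. That was 16.7% against the 12.8%, 10.3% and 3.79% of all tested genes. The list's median log2 fold changes were 0.21, -0.78 and 0.57, beside 0.11, 0.09 and 0.02 over all tested genes. Pparg, a nuclear receptor that GM-CSF induces in alveolar macrophages, was the only gene of the list called against BM lines. The BM lines had 26.24, 23.58 and 16.74 TPM, the YS lines 0.25, 2.26 and 13.00 TPM, and the FL lines 4.97, 2.43 and 3.14 TPM (log2 fold changes -2.57 and -2.38). Without BM line 1 neither Pparg call was made, and between FL and BM lines it was also lost without FL lines 2 or 3 or BM lines 2 or 3. Itgax, which encodes CD11c, was the 1 gene of that list called between YS and FL lines (1.86, limma adjusted p = 0.0942), with overlapping groups, and is named after its values were seen. Pim1 was higher in BM lines by less than 2-fold (log2 fold changes -0.87 and -0.83). No gene of the list besides Pparg and Pim1 had its highest mean in BM lines. Siglecf, Socs2 and Cish, below the filter, had their lowest means there, at 0.08, 0.02 and 0.43 TPM. These genes are also named after their values were seen.

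Among transcription factors known to act on the Csf1r gene, 14 of 16 were tested and 5 were called in each comparison with BM lines (4 higher and 1 lower), or 35.7% against 12.8% and 10.3% of all tested genes, while Csf1r itself was not called. Maf had log2 fold changes of 2.97 in YS and 3.41 in FL over BM lines, with 22.99, 51.44 and 17.44 TPM in BM lines and at least 187.92 TPM in the others. Ets2 (1.89 and 1.49) and Irf8, a monocyte lineage factor (1.54 and 1.11), were higher in both, Egr2 was lower in both (-1.32 and -1.40), and Cebpa was higher in FL than in BM lines (1.51). For YS against FL lines limma called none, and 5 had an unadjusted p under 0.05. The number called was 2 without YS line 2 and 1 without FL line 1, beside 549 and 526 of all tested genes. The list's median log2 fold changes were 0.18, 0.42 and 0.09, beside 0.11, 0.09 and 0.02 over all tested genes.

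**Figure D4:**
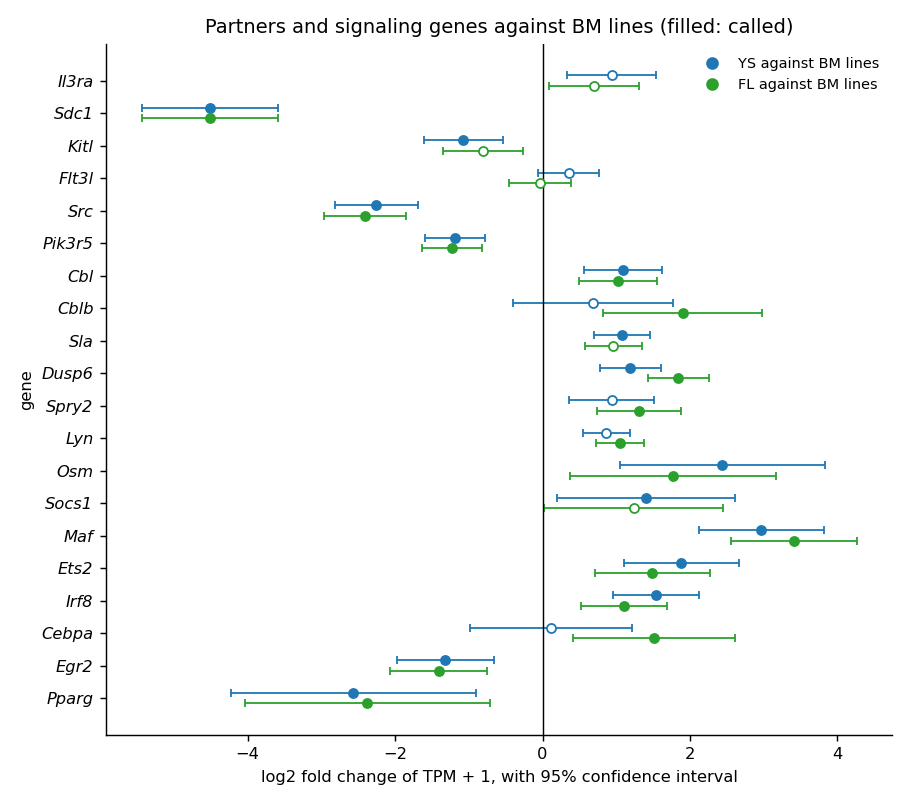
Log2 fold change of TPM + 1 (horizontal axis) with 95% confidence intervals for 20 partner, signaling and target genes, YS lines (blue) and FL lines (green) each against BM lines, filled where called. Sdc1 lies at -4.51 in both comparisons, and Src at -2.26 and -2.41, while Maf lies at 2.97 and 3.41.

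For each tested member, the genes with the most similar pattern were read from Pearson's r of log2(TPM + 1) over the 9 libraries, as a description of libraries that share their group and scaling. Csf1 was closest to Ssr2 (0.984), Aplp2 (0.975) and Cd74 (0.955), Csf1r to Ralgps1 (0.983), Gpr155 (0.980) and Klf2 (0.978), and Csf2ra to Pbx4 (0.979) and Ost4 (0.978). Csf2rb was closest to Tkt (0.972), Gm5803 (0.972) and Apoa2 (0.961), and Csf2rb2 to Rgs1 (0.976), Pcp4l1 (0.968) and Mink1 (0.965). Between 38 and 104 of the 11753 tested genes had an r above 0.9 with a given member. Cd74, the invariant chain of MHC class II, was at 129.15, 218.38 and 450.41 TPM in YS lines, where Csf1 had the same order of lines, and at 57.48, 7.69 and 81.62 TPM in FL lines, where line 2 was lowest in both genes. Rgs1, a regulator of G protein signaling, was at 288.21, 291.49 and 273.40 TPM in BM lines and, as Csf2rb2, lowest in FL line 2, at 77.75 TPM.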

How the data were processed

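RNA-seq libraries of 3 YS, 3 FL and 3 BM lines were prepared by the authors with poly(A) selection and a strand-specific kit and read as single reads of 75 nt. They deposited 1 table of TPM by gene symbol, given to 2 decimals. The submitters' processing notes name Trim Galore 0.6.6, STAR 2.7.9a and RSEM 1.3.3, and the genome build and annotation are not given in the sources used here. Since TPM does not record depth, neither counting errors nor detection limits could be computed. Groups and line numbers came from the sample labels.

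The filter kept genes that 3 or more of the 9 libraries held at 1 TPM or above. On log2(TPM + 1), limma 3.58.1 in R 4.3.3 fitted all groups in 1 model, with trend-based empirical Bayes moderation, and p-values were adjusted by Benjamini and Hochberg separately per comparison. Genes were called at an adjusted p under 0.1 and more than 2-fold. The fit was tested on simulated data. Ratios within a library were compared by two-sided exact permutation of lines, which cannot give a p below 0.1 with 3 lines a group. Tables were handled in Python 3.11.15 with pandas 2.3.3. Chromosomes, neighbours and promoters came from RefSeq (GRCm38.p6) and transcripts from GENCODE M21.

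The members and gene lists were chosen with earlier results of these data known. The text names all 8 members, every gene of the ligand and receptor list, the 3 largest rises and falls per comparison among called, non-overlapping genes of each other list, marker genes, and the 3 genes most correlated with each tested member. Genes outside this rule are said to be so. A few genes that the rule names are not reported here. As alternatives, pseudocounts of 0.1 and 4, no filter or one of 5 TPM, quantile, median-of-ratios and Actb scaling, no trend, fits of only the 2 groups compared, other thresholds, a replicate block and the removal of each line were tried.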

Additional observations from a re-analysis of the deposited data

How the results depend on the processing

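The 2 members called between FL and BM lines, Csf2ra and Csf2rb2, passed in all 21 alternatives. Between YS and BM lines the 2 calls became 1 with a pseudocount of 0.1 (Csf1 lost, limma adjusted p = 0.131), and leaving out 1 line gave 1 to 2. Without the filter they were 3, since Csf3r then entered and passed (log2 fold change 2.48, limma adjusted p = 0.0804). Between YS and FL lines the 1 call, Csf1, became 0 with a pseudocount of 0.1, without a filter, with only the 2 groups compared fitted, at a false discovery rate of 0.05 and with the replicate block, and 0 to 1 when 1 line was left out, while 3 to 4 members had an unadjusted limma p under 0.05 in the first 5 of these. Without a fold threshold it was 2, Csf2rb2 being added. Line numbers are not stated to pair the lines, and the values showed no pairing, without being able to exclude one. Deviations of same-numbered lines correlated between -0.12 and 0.09 in 9 pairs, 2 lines correlated best with their own number, and the replicate block left 2, 2 and 0 members called (Csf1 between YS and FL lines, limma adjusted p = 0.101).

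Signs that changed were all of differences that were not called. Relative to Actb, Csf1r between FL and BM lines was -0.018 and Csf2rb between YS and BM lines -0.045. With quantile normalization Csf2rb between YS and BM lines was -0.0061, and as the sum with Csf2rb2 it was -0.25. Leaving out 1 line gave -0.37 to 0.032 for Csf1r and -0.13 to 0.38 for Csf2rb between YS and BM lines, -0.82 to 0.54 for Csf1 between FL and BM lines and -0.41 to 0.48 for Csf2ra between YS and FL lines. For the log2 ratios it gave -1.10 to 0.23 for Csf1 over Csf1r and -0.23 to 0.10 for Csf3r over Csf1r between FL and BM lines. Between YS and FL lines it gave -0.075 to 1.26 for Csf2rb over Csf2ra and -0.0023 to 0.59 for Csf2rb2 over Csf2rb. With a pseudocount of 0.1 the ratio of Csf3r over Csf1r between FL and BM lines was 0.90. The causes were not tested. Scaling moved the median log2 fold change of all genes from 0.11 to -0.01 (quantile) and -0.05 (Actb) between YS and BM lines and from 0.09 to -0.21 (Actb) between FL and BM lines, and with it the split of all calls. Between YS and BM lines 890 genes were higher and 614 lower on TPM, against 724 and 763 with quantile normalization, and between FL and BM lines 706 and 505, against 471 and 875 relative to Actb. M-CSF receptor signaling genes called against BM lines fell to 3 (YS) and 5 (FL) under each other scaling. Over all tested genes 1487 to 1514 (YS) and 1185 to 1346 (FL) were called, beside 1504 and 1211 on TPM. TPM without counts limits the low genes most, and Il34, Csf2 and Csf3r are given only as listed.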

Other observations

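The genes next to the members in the RefSeq order were read from the table. Csf2rb and Csf2rb2 neighbour each other on chromosome 15 with only a microRNA gene between them, and the gene next to Csf2rb2, Ncf4, an NADPH oxidase subunit, had means of 244 (YS), 242 (FL) and 274 TPM (BM). P4ha2, a collagen prolyl hydroxylase close to Csf2, had means of 19.4 (YS), 19.1 (FL) and 0.72 TPM (BM), although Csf2 and Il3 beside it were at or near 0 in all lines. Mrps15, next to Csf3r, was at means of 139.9, 119.8 and 82.9 TPM in the same order. These neighbours were named for their position, after their values were seen.

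Of 6 osteoclast markers, Ctsk and Dcstamp had their highest levels in different groups. Ctsk, the gene of cathepsin K, was at 333.37, 90.21 and 1270.20 TPM in BM lines and at most 3.24 TPM elsewhere. Dcstamp, a fusion gene of osteoclasts, was at 44.01, 28.68 and 5.16 TPM in YS lines, at most 0.55 TPM in FL lines and between 3.46 and 6.15 TPM in BM lines. Calcr, the calcitonin receptor of mature osteoclasts, was at most 0.04 TPM in any line. Mast cell, basophil and epithelial markers summed to at most 0.14 and 0.27 TPM per library. Of 7 lymphoid markers only Il7r, the IL-7 receptor, reached 1 TPM, with 48.39 TPM in FL line 3 as its highest value and 0.04 TPM in FL line 2 as its lowest.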
